A study of Mus musculus with 47 samples.

Results

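Loss of the pregnane X receptor (PXR, encoded by Nr1i2) was described here in the liver of female mice that received no antibiotics. All 6 Pxr-/- and all 6 Pxr+/+ control (Cont) females were taken, 12 of the 47 mice of the series, with 1 one-color array for each mouse. Every mouse was a C57BL/6J littermate from crosses of Pxr+/- parents, grouped at the age of 5 weeks according to sex and genotype. The mice were fed a standard diet and were 6 months old when the 2 weeks with or without antibiotics began. They were killed after these 2 weeks at ZT6, which is 6 h after lights on. Controls drank plain tap water. The deletion was carried in the germline and by every tissue, so an effect that arose outside the liver or during growth is part of each difference. Each group came from 2 cages, and the sources used here do not say which mouse lived in which. Pxr+/+ and Pxr-/- females that drank antibiotics (ATB) for 2 weeks, namely vancomycin at 0.5 g/L with ampicillin and neomycin at 1 g/L each, served for comparison with 6 mice per genotype, as did control males with 6 Pxr+/+ and 5 Pxr-/- mice. No mouse is shared between these comparisons.

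PXR is a nuclear receptor that binds drugs, steroids and bile acids. With its partner RXR it binds pairs of short AGTTCA-like elements, often direct repeats with 3 bases between them (DR3) or everted repeats with 6 bases between them (ER6), and turns on genes for oxidation, conjugation and export of foreign compounds. Cyp3a, Cyp2b and Cyp2c enzymes are its best known targets in hepatocytes. The liver also holds Kupffer cells, the resident macrophages of the sinusoids, which clear bacterial products from portal blood.

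The 250 bases before the start of 4 genes with higher mRNA levels are shown because they are the drug, lipid and steroid processing genes on which the first results turn. The sequences are those of RefSeq (mouse GRCm38.p6) and run 5′ to 3′ on the strand of the gene, which is the plus strand for all 4. Capitals mark AGTTCA or AGGTCA on either strand. The windows are chr19:39006769-39007018 for Cyp2c55, chr6:34412112-34412361 for Akr1b7, chr8:104733753-104734002 for Ces2a and chr7:13623717-13623966 for Sult2a5.
Cyp2c55: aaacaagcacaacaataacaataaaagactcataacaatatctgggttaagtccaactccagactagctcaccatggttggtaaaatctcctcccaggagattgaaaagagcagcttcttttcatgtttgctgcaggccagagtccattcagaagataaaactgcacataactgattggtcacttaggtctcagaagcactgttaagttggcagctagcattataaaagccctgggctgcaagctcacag
Akr1b7: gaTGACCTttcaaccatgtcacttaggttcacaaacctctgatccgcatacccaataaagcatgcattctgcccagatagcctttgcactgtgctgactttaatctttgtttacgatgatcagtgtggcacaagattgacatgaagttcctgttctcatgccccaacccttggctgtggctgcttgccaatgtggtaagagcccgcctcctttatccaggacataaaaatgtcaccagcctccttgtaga
Ces2a: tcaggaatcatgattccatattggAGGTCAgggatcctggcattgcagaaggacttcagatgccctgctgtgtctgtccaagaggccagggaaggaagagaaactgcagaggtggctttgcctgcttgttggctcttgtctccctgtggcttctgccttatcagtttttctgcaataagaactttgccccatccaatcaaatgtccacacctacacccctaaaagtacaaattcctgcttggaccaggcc
Sult2a5: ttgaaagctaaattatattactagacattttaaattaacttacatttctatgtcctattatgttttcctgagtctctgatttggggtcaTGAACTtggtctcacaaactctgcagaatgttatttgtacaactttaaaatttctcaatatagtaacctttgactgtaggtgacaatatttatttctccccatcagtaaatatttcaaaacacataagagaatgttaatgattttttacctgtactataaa

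Ces2a held AGGTCA as written, Akr1b7 held it on the other strand (TGACCT), Sult2a5 held AGTTCA on the other strand (TGAACT), and Cyp2c55 held neither. At least 1 such element was found in 24.2% of 32851 RefSeq promoter windows of the same length, AGTTCA in 11.8% and AGGTCA in 14% (overlapping matches counted once per window). None of the 4 windows held a DR3 or an ER6 of these exact letters, which occurred in 0.0122% and 0.00913% of all windows. These are matches of letters in a short window and say nothing of whether the receptor binds there.

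Most Pxr-/- arrays were dimmer than the Pxr+/+ arrays. The median spot intensity had a 75th percentile between 333 and 486 (median 381.5) in Pxr-/- females and between 404 and 459 (median 432.25) in Pxr+/+ females (two-sided exact permutation test, p = 0.113, n = 6 and 6), and 4 of the 6 Pxr-/- arrays lay below every Pxr+/+ array. Between 31814 and 33629 probes were well above background in Pxr-/- and between 32495 and 34477 in Pxr+/+ females (exact permutation p = 0.0801). The part of these levels in the results was not tested. The hepatocyte list was alike in both groups, with 0 of 19 genes called and a mean level of 8.01 to 8.19 in Pxr-/- and 7.99 to 8.20 in Pxr+/+ females (log2 units from the array's center). One Pxr-/- liver, replicate 1, stood apart. Its Saa1 level, a serum amyloid of the acute phase response, was 18.15 on the normalized log2 scale, whereas the other 11 livers lay between 11.69 and 13.60. Its Lcn2 level, an iron-binding acute phase protein, was 15.97 against 8.80 to 11.66. The mean of 21 acute phase genes was 6.32 in this liver and 4.25 to 4.69 in the others. A call of a named gene that was lost without this liver is marked beside it.

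The Nr1i2 probe itself (chr16:38248745-38248804, mm9) did not separate the genotypes. In Pxr-/- females its log2 level had a median of 11.71 (11.37 to 11.89), in Pxr+/+ females one of 12.03 (11.46 to 12.28), and the groups overlapped. The difference was -0.29 ± 0.18 (SE) with limma's adjusted p = 0.33. In control males it was -0.28 and in ATB females -0.50, also with no call. The sources used here do not give where in the gene the deletion lies, so this probe checks no label.

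Of 21628 genes tested, 52 had higher (0.24%) and 851 lower mRNA levels (3.93%) in Pxr-/- than in Pxr+/+ control females (limma, false discovery rate of 0.05 or less and fold change above 1.2). The lower count depended on the scaling of whole arrays. The median of all genes was -0.12 on the log2 scale, 80.7% of genes lay below 0, and quantile normalization, which removes a shift of whole arrays, gave a median of -0.0036 with 125 higher (0.578%) and 167 lower genes (0.772%). The share of lower calls was then 57.2%, against 94.2% before. All 167 were among the 851, and 51 of the 52 higher genes were called both ways. The lower count also depended on single livers. It was 501, 157, 2841, 119 and 533 without Pxr-/- replicate 1, 2, 3, 5 and 6, and 371, 561, 410 and 294 without Pxr+/+ replicate 2, 3, 4 and 5. The higher count was 31 without Pxr-/- replicate 5, 33 without Pxr+/+ replicate 3, and 37 to 71 without any other liver. Called in all 12 fits that left out 1 liver were 27 higher and 102 lower genes, and 27 and 81 of them also passed with quantile normalization. Of the genes named below, this holds for the rises of Cyp2c55, Akr1b7, Ces2a, Ces2f, Abcc3, Sult2a5, Pla2g12a, Rarres1, Adamtsl1, Krt31, Glod5, Ldlrad4, Igfbp2, Ift57, Tctex1d2 and Meltf. It also holds for the falls of Vsig4, Clec4f, Cd68, Msr1, Irf5, Stab2, Ly6a, Apol7b, Adrb3, Gm6135, Gm5150, LOC102642410, A130072N09Rik, Pigx, Senp5, Pla1a, Tagln3 and Dubr. Each other rise or fall named below lost its call without at least 1 liver. Levels in the 6 Pxr-/- livers did not overlap those in the 6 Pxr+/+ livers for 25 higher (0.116%) and 361 lower genes (1.67%). Among the called genes, 14 higher and 237 lower did not overlap.

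The largest rise was that of Cyp2c55, an epoxygenase and hydroxylase of fatty acids and drugs. Its level had a median of 10.26 in Pxr-/- females (9.13 to 10.67) and of 7.95 in Pxr+/+ females (6.43 to 8.17), and every Pxr-/- liver was above every Pxr+/+ liver. The difference of 2.43 ± 0.25 was a 5.39-fold rise (adjusted p = 3.52e-08), and its second probe rose by 1.78. Akr1b7, an aldo-keto reductase that detoxifies aldehydes, was at 9.001 to 10.46 (median 9.81) against 7.16 to 8.64 (median 7.53), a 4.14-fold rise (2.05 ± 0.24, adjusted p = 5.21e-07) with no overlap. Ces2a, a carboxylesterase that hydrolyses drug and lipid esters, was at 12.26 to 12.98 (median 12.85) against 11.65 to 12.28 (median 11.99), with 1 Pxr-/- liver, replicate 1, just inside the Pxr+/+ range. Its rise was 0.77 ± 0.10 (1.70-fold, adjusted p = 8.51e-06), and 0.87 without that liver.

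**Figure D1:**
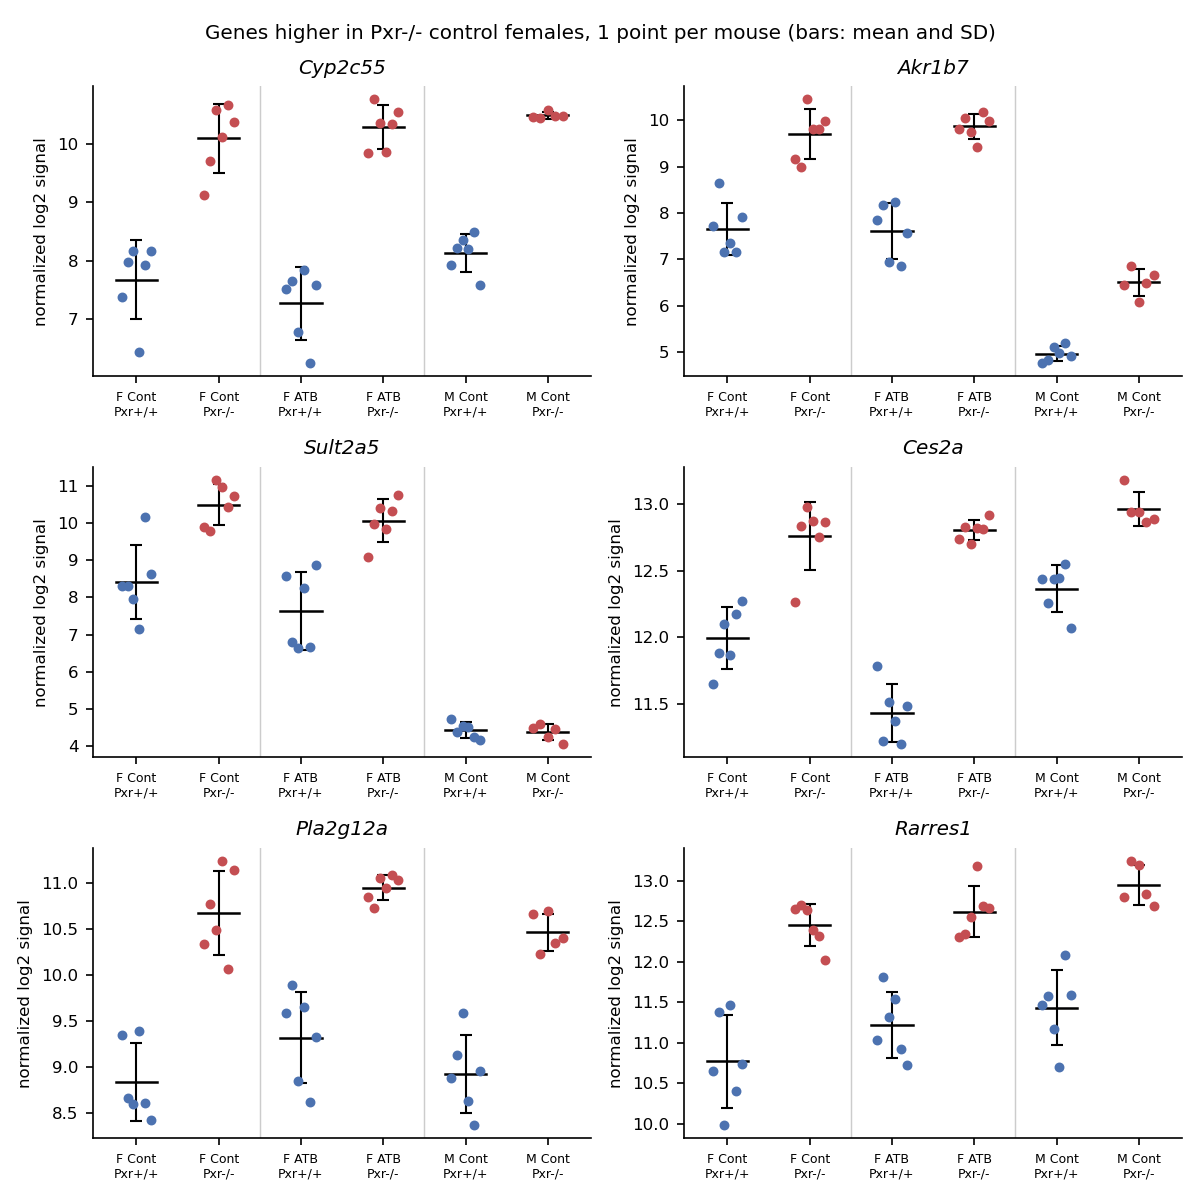
Normalized log2 signal of 6 genes in each mouse, with 1 point per mouse and the mean and SD of each group as bars, for control females, ATB females and control males of both genotypes. In control females every Pxr-/- point of Cyp2c55, Akr1b7, Pla2g12a and Rarres1 lies above every Pxr+/+ point, and 1 Pxr+/+ liver at 10.14 reaches the Pxr-/- range of Sult2a5, which lies between 4.06 and 4.74 in males.

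Further genes of drug processing rose less. Ces2f, a neighbour of Ces2a in the same family, rose by 0.63 ± 0.12 (adjusted p = 0.00449). Aldh1a1, a retinaldehyde dehydrogenase, rose by 0.57 (adjusted p = 0.0237) and Cyp2c38 by 0.46 (adjusted p = 0.0492). Abcc3, which exports conjugates into blood, rose by 0.50 ± 0.12 (adjusted p = 0.0169), while in control males its difference was 0.005. Across the lists of the pathway, 2 of 15 Cyp2c genes, 3 of 27 other oxidation and hydrolysis genes and 1 of 18 transporters rose, 1 of those 27 fell, and 0 of 26 conjugation genes were called (median -0.10, against -0.12 over all genes). Of all genes, 0.24% rose and 3.93% fell, so the 1 fall of 27 is near the background share, and it was not called without Pxr-/- replicate 1.

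No Cyp3a gene passed the test, although 7 of the 8 tested lay above 0. Their median was 0.43, whereas the median of all genes was -0.12. Cyp3a11, the main drug oxidase of this family in mouse liver, was at 15.47 to 15.91 (median 15.71) in Pxr-/- and 14.65 to 15.75 (median 15.40) in Pxr+/+ females. Its difference was 0.43 ± 0.17 (adjusted p = 0.152), and the groups overlapped. Cyp3a16 differed by 0.55 (adjusted p = 0.0597), Cyp3a57 by 0.48 (adjusted p = 0.0615) and Cyp3a25 by 0.47 (adjusted p = 0.084). With quantile normalization 4 of the 8 were called higher, where 0.578% of all genes were. Among them were Cyp3a16 at 0.63 and Cyp3a57 at 0.61, against a median of -0.0036 over all genes. Cyp3a25 and Cyp3a57 passed in ATB females (1.13 and 1.17) and in control males (0.77 each). The test of the difference between the effects called neither. Of 3 Cyp2b genes 0 were called, and Cyp2b10, at 14.85 to 15.73 against 14.95 to 15.51, differed by 0.13 (adjusted p = 0.848) on its brightest probe and by 0.69 ± 0.23 (adjusted p = 0.0827) on its other probe. Cyp3a members are close in sequence, so a probe may also bind the mRNA of another member.

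A cluster of hydroxysteroid sulfotransferases on chromosome 7 was higher as well. These Sult2a enzymes add sulfate to bile acids and steroids and are female-biased in mouse liver. Sult2a5 was at 9.79 to 11.14 (median 10.57) in Pxr-/- and 7.15 to 10.14 (median 8.31) in Pxr+/+ females. Replicate 5 was the 1 Pxr+/+ liver that reached the Pxr-/- range. The rise was 4.21-fold (2.07 ± 0.34, adjusted p = 0.000466), and without that liver it was 2.44. Sult2a7, Sult2a6 and Sult2a4 rose by 1.38, 1.18 and 1.09 (adjusted p = 0.0484, 0.016 and 0.0214). Sult2a1, Sult2a2 and Sult2a3 differed by 0.96, 0.63 and 1.41 and did not pass (adjusted p = 0.0747, 0.2 and 0.0585). The same Pxr+/+ liver was also the highest of its group for Sult2a1 (16.66) and Sult2a4 (14.62). Of the 12 fits that left out 1 liver, Sult2a5 was called in each, while Sult2a7 lost its call in 8 (also without Pxr-/- replicate 1), Sult2a4 in 3 and Sult2a6 in 2. In ATB females Sult2a5, Sult2a4 and Sult2a6 rose by 2.43, 1.31 and 1.26. In control males, Sult2a1 to Sult2a6 were well above background in at most 1 of 6 Pxr+/+ and in 0 of 5 Pxr-/- livers. These genes are near copies of each other, so their values are not independent.

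Most of the rises lay outside the lists, which held 6 of the 52 genes and 573 of all 21628 genes tested. Pla2g12a, a secreted phospholipase A2, was at 10.06 to 11.23 (median 10.63) against 8.43 to 9.40 (median 8.64), a 3.56-fold rise (adjusted p = 5.6e-08). Rarres1, a carboxypeptidase inhibitor induced by retinoids, was at 12.02 to 12.70 (median 12.52) against 9.98 to 11.47 (median 10.69), a 3.22-fold rise (adjusted p = 4.63e-06). Neither gene overlapped between the groups. Adamtsl1, a secreted matrix protein, rose by 1.12, Krt31, a hair keratin, by 1.00, Glod5, a glyoxalase-domain protein, by 0.91 and Ldlrad4, an inhibitor of TGF-beta signaling, by 0.66, all with no overlap. Gm11827 rose by 1.06 and Smim22, a small membrane protein, by 0.75, also with no overlap. C730002L08Rik was not well above background in any Pxr+/+ liver, and its level was at least 1.47-fold higher in Pxr-/- females (adjusted p = 0.0295). Without Pxr-/- replicate 1, its highest liver, the adjusted p was 0.0975.

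Igfbp2, which binds insulin-like growth factors, rose by 0.81 ± 0.17 (1.75-fold, adjusted p = 0.0086) with overlapping ranges of 14.48 to 15.29 and 13.62 to 14.66. The major urinary proteins Mup2 and Mup6 rose by 0.69 and 0.76 (adjusted p = 0.0257 and 0.0465), and their near-identical family shares probe sequence. Mup2 no longer passed without Pxr-/- replicate 1 (0.59, adjusted p = 0.0745). Socs2, a feedback inhibitor of growth hormone signaling, was at 9.30 to 10.61 (median 9.71) in Pxr-/- and 10.71 to 11.23 (median 11.02) in Pxr+/+ females with no overlap. Its brightest probe differed by -1.15 and did not pass (adjusted p = 0.17), whereas another of its 4 probes fell by 0.66 (adjusted p = 0.0203). Of all genes, 4.18% were called in either direction, and of 14 female-biased liver genes only A1bg, a plasma glycoprotein, was called. Its level was 7.28 to 11.52 in Pxr-/- (median 7.86) and 8.42 to 11.57 in Pxr+/+ females (median 10.57). The highest Pxr-/- value was that of replicate 1, and A1bg fell by 1.80 with that liver and by 2.40 without it (adjusted p = 0.0342 and 0.00139), and its call was lost in 7 of the 12 fits that left out 1 liver. Of 17 male-biased genes only Susd4, a complement regulator, fell (by 0.69, adjusted p = 0.03, and 0.075 without Pxr-/- replicate 1). A count of 1 in lists of 14 and 17 genes is near the share of all genes.

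The largest fall by size was that of Cyp7a1, the rate-limiting enzyme of bile acid synthesis. Its level was 6.93 to 9.82 in Pxr-/- (median 8.80) and 9.35 to 12.78 in Pxr+/+ females (median 10.57), and the ranges overlapped. It fell by 2.04 ± 0.52 (4.12-fold, adjusted p = 0.0249), but by 1.97 with an adjusted p of 0.0511 without Pxr-/- replicate 1, and it lost its call in 6 of the 12 fits that left out 1 liver. Cyp8b1, which makes cholic acid, fell by 1.03 (adjusted p = 0.0482, and 0.121 without Pxr-/- replicate 1) and lost its call in 10 of 12 such fits. Baat, which conjugates bile acids, fell by 0.46 (adjusted p = 0.0418, and 0.127 without Pxr-/- replicate 1) and lost it in 7. Of the 12 genes of bile acid synthesis, 0 were called with quantile normalization and 0 without Pxr-/- replicate 1. Nr0b2, a repressor of Cyp7a1, was at 9.45 to 9.87 (median 9.66) against 8.33 to 9.53 (median 9.11), a difference of 0.71 that did not pass (adjusted p = 0.0631). Differences of Cyp7a1 in ATB females and control males were -0.06 and -0.96, with no call. Csad, an enzyme of taurine synthesis, fell by 1.54 ± 0.34 (2.92-fold, adjusted p = 0.0101), and the ranges of 10.46 to 12.69 and 11.93 to 14.56 overlapped.

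Kupffer cell markers were lower as a group. All 23 tested lay below 0, 14 of them fell and 0 rose, with a median of -0.81 against -0.12 over all genes, and the background share of lower calls was 3.93%. The median was -0.83 without Pxr-/- replicate 1, with 11 called, and it ranged from -0.88 to -0.73 over the 12 fits that left out 1 liver, with 4 to 17 called. It was -0.90 within wash batch 1, -0.95 within batch 2 and -0.54 within batch 3, which held only replicate 6 of each genotype. Quantile normalization gave a median of -0.69 with 4 genes called. Cd68, Clec4f, Msr1 and Vsig4 fell in each of the 12 fits. In such bulk liver RNA, fewer cells of a type and less RNA per cell cannot be told apart.

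Vsig4, a complement receptor of resident macrophages, had a median of 8.96 in Pxr-/- (8.72 to 9.15) and of 10.09 in Pxr+/+ females (9.83 to 10.26). The groups were a full log2 unit apart in their medians and did not overlap (a 2.14-fold fall, adjusted p = 0.0104). Clec4f, a lectin of Kupffer cells, was at 11.91 to 12.33 (median 12.02) against 12.54 to 13.01 (median 12.87) and fell by 0.76 ± 0.17 (adjusted p = 0.012), with no overlap. Of the other defining markers, Timd4, a receptor for dying cells, was at 6.63 to 7.36 against 7.62 to 8.88, and Adgre1, the F4/80 antigen, at 8.96 to 9.80 against 9.83 to 10.81. Neither overlapped, yet their differences of -0.81 and -0.85 did not pass (adjusted p = 0.151 and 0.157). The scavenger receptors Marco and Cd163 differed by -1.11 and -0.26 with overlap (adjusted p = 0.438 and 0.568). Lyz2 (lysozyme), the complement genes C1qa, C1qb and C1qc, Csf1r, the receptor of macrophage growth factor, and Folr2 fell by 1.07, 1.05, 1.02, 0.79, 1.01 and 0.98, each with no overlap, and Lyz2 and C1qc were not called without Pxr-/- replicate 1 (adjusted p = 0.0878 and 0.07). A second Csf1r probe, also above background in every liver, differed by 0.04 (adjusted p = 0.798). Per mouse, the mean of the 23 markers ranged from 1.23 to 1.53 for Pxr-/- and from 1.84 to 2.58 for Pxr+/+ females, so that all 6 Pxr-/- livers were below all 6 Pxr+/+ livers.

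**Figure D2:**
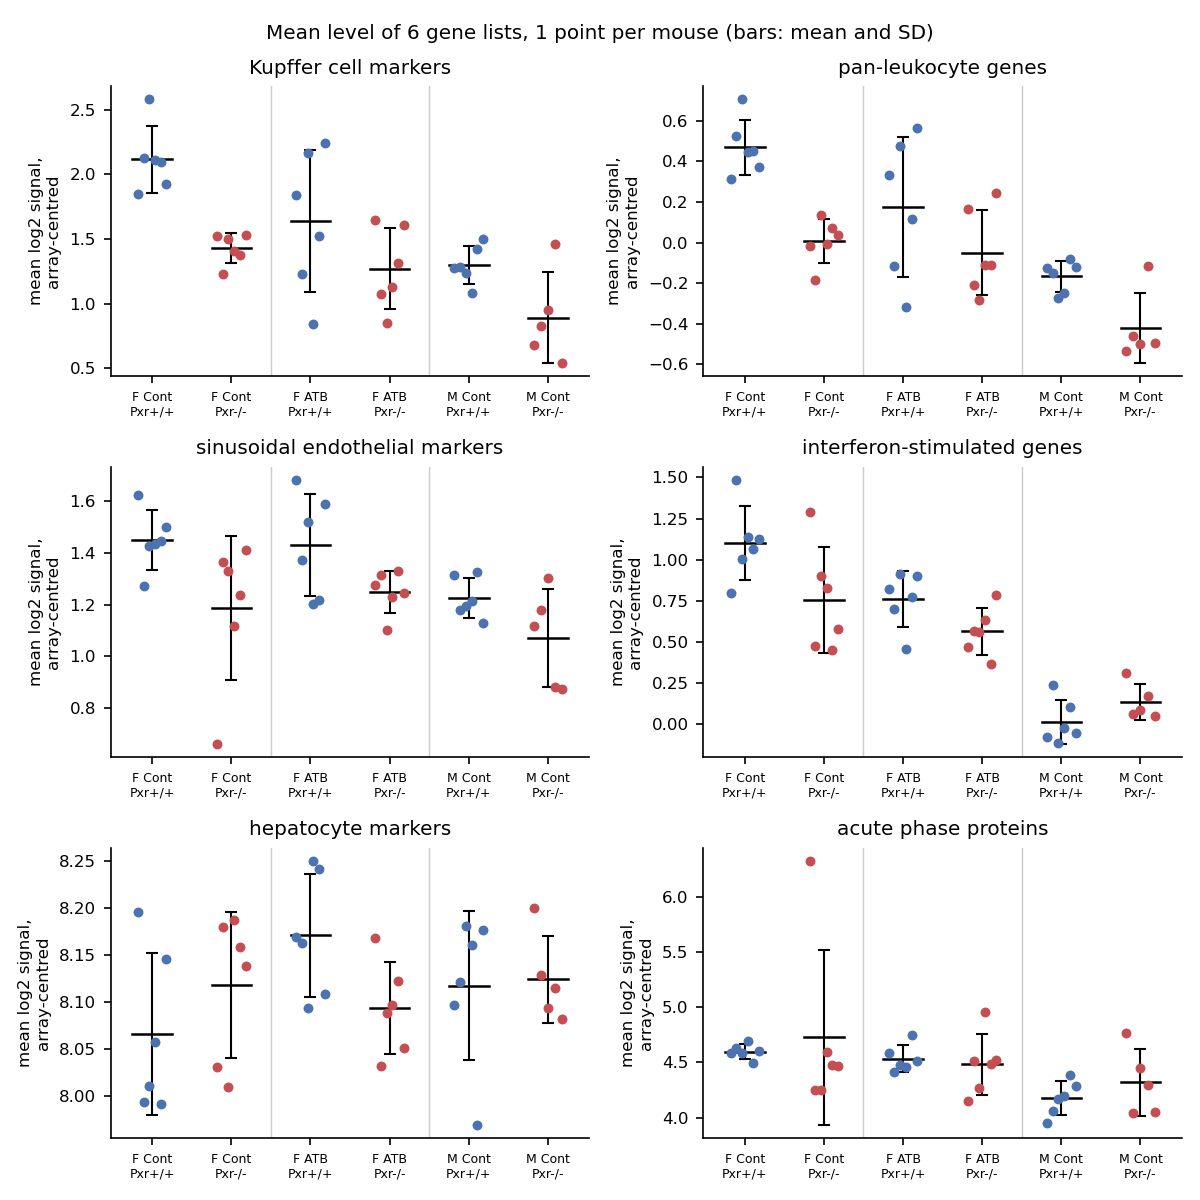
Mean log2 signal of 6 gene lists in each mouse, centered on its array, with 1 point per mouse and the mean and SD of each group as bars. Kupffer cell markers of the 6 Pxr-/- control females lie between 1.23 and 1.53, below the 1.84 to 2.58 of the Pxr+/+ control females, the hepatocyte lists overlap, and 1 Pxr-/- control female stands at 6.32 for acute phase proteins.

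Genes shared by many leukocytes followed the same order. Of 18, 11 fell (median -0.67), where 3.93% of all genes were called lower and the median of all genes was -0.12. The mean of the 18 per mouse ranged from -0.18 to 0.14 for Pxr-/- and from 0.31 to 0.71 for Pxr+/+ females, with no overlap. Tyrobp, the adaptor of activating receptors, fell by 1.01, Itgb2, an integrin, by 0.78 and Fcer1g, the Fc receptor gamma chain, by 0.76. Of 20 Fc and paired receptors, 10 fell (median -0.71), led by Pilra, an inhibitory receptor (by 1.14, 7.33 to 8.52 against 8.61 to 9.44, while 1 of its 3 probes differed by -0.12), Fcgr3 (by 0.93) and Clec7a, the receptor for fungal glucans (by 0.89). With quantile normalization 1 of the 18 and 6 of the 20 were called lower, as were 0.772% of all genes. Without Pxr-/- replicate 1 the counts were 4 and 9, with Itgb2 and Fcer1g among those lost. Over the 12 fits that left out 1 liver, 0 to 13 of the 18 and 2 to 14 of the 20 were called. The lowest counts, 0 and 2, were those without Pxr-/- replicate 2.

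Cytokine genes were lower too, with 9 of 19 called and a median of -0.57. Of all genes, 3.93% were called lower, and their median was -0.12. Ccl24, an eosinophil attractant made by macrophages, was at 8.25 to 8.75 (median 8.50) against 9.33 to 9.93 (median 9.61) and fell by 1.12 ± 0.28 (adjusted p = 0.0232), with no overlap. Ccl2, which attracts monocytes, fell by 1.18 (adjusted p = 0.0381) and Csf1, the growth factor of macrophages, by 0.67 (adjusted p = 0.0264). Il1b was at 5.91 to 7.88 against 7.77 to 9.52. The brighter of its 2 probes differed by -1.70 (adjusted p = 0.0832) and the other, above background in 3 of 6 Pxr-/- livers, had an adjusted p of 0.0304, a call that was lost without Pxr-/- replicate 1. Tnf differed by -0.34 with no call (adjusted p = 0.281). Only 4 of the 19, Ccl2 not among them, were called without Pxr-/- replicate 1. With quantile normalization 0 were called, where 0.772% of all genes were called lower. Over the 12 fits that left out 1 liver, 0 to 14 of the 19 were called, with 0 without Pxr-/- replicate 2. Among 25 genes of bacterial sensing 3 fell, and 2 without Pxr-/- replicate 1 (median -0.22 and -0.27). Over the 12 fits, 1 to 8 of the 25 were called. Irf5, a transcription factor downstream of Toll-like receptors, was at 7.45 to 8.18 (median 7.88) against 8.37 to 9.55 (median 8.57) and fell by 1.02 ± 0.20 (adjusted p = 0.00449) with no overlap, while Tlr4, the receptor of endotoxin, differed by -0.22 (adjusted p = 0.142).

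Other cell types of the liver gave smaller medians. Sinusoidal endothelial markers had 7 of 23 called and a median of -0.38, among them the scavenger receptor Stab2 (fell by 0.61, no overlap), Clec4g (by 0.59, while its second probe differed by -0.11) and Kdr, the receptor of VEGF (by 0.58, adjusted p = 0.0337, and 0.108 without Pxr-/- replicate 1). Only 2 of the 23 were called without Pxr-/- replicate 1, with a median of -0.24, and 2 with quantile normalization. Stellate cells and fibroblasts had 1 of 20 called (median -0.32), T and NK cells 2 of 25 (-0.30), B cells 1 of 9 (-0.17), neutrophils 2 of 8 (-0.20), monocytes 4 of 10 (-0.27), dendritic cells 0 of 10 (-0.28), antigen presentation by MHC class II 1 of 9 (-0.39) and cholangiocytes 0 of 11 (0.08). The share of all genes called lower was 3.93%. Without Pxr-/- replicate 1, 2 monocyte markers and 1 T and NK cell marker were called, and the neutrophil median was -0.37. Of the monocyte markers Chil3, a chitinase-like protein, was called lower (adjusted p = 0.00974), but it was well above background in only 2 of 6 Pxr-/- and 5 of 6 Pxr+/+ livers, so no size is given. Ccr2, the receptor of Ccl2, differed by -0.14 (adjusted p = 0.5). Ly6a, a surface antigen of endothelial and lymphoid cells, was in no list and fell 2.14-fold (adjusted p = 0.0023), at 8.76 to 9.64 against 9.75 to 10.84.

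**Figure D3:**
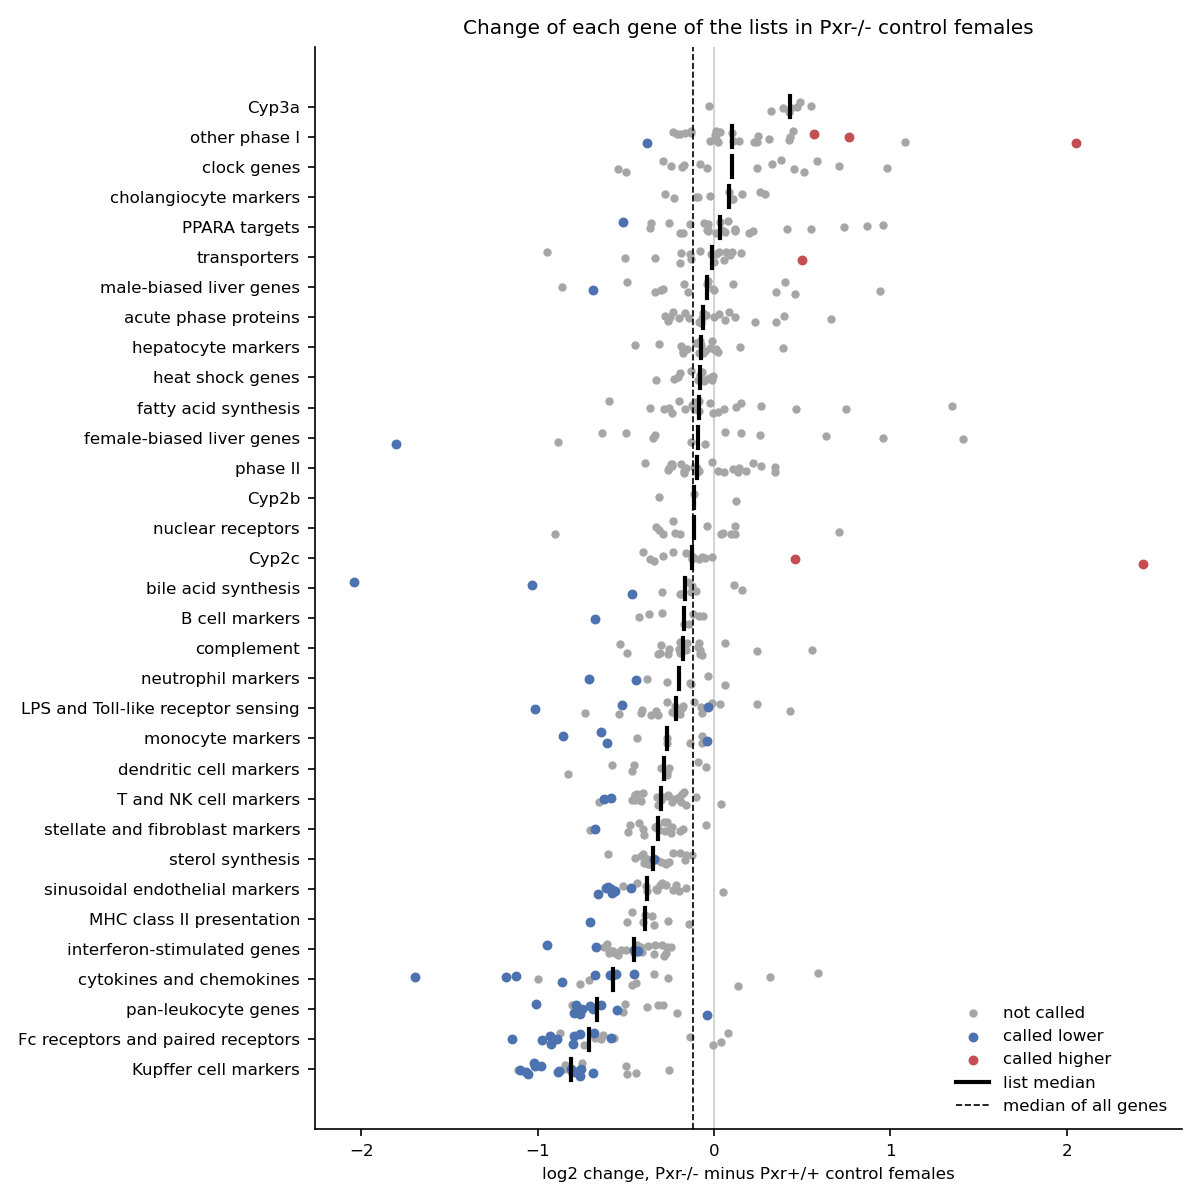
Log2 change of each tested gene of 33 lists between Pxr-/- and Pxr+/+ control females (horizontal axis), with called genes in color, the median of each list as a thick bar and the median of all genes (-0.12) as a dashed line. The Kupffer cell list has the lowest median (-0.81), and the Cyp3a list the highest (0.43) with no called gene.

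All 28 interferon-stimulated genes lay below 0 (median -0.45), where 80.7% of all genes did. Only 4 of the 28 were called, where 3.93% of all genes were called lower. Ifi27l2a fell by 0.95, Oas1a, an antiviral synthetase, by 0.67 and Ifih1, a sensor of viral RNA, by 0.43 (adjusted p = 0.0361, 0.0406 and 0.0461), and their ranges overlapped. Without Pxr-/- replicate 1 the median was -0.58 with 7 called, Ifih1 not among them (adjusted p = 0.0507), and with quantile normalization -0.32 with 0 called. The median of -0.58 was the lowest of the 12 fits that left out 1 liver, which called 0 to 18 of the 28. The highest was -0.35 with 0 called, without Pxr-/- replicate 2. Sterol synthesis had all 22 genes below 0 with a median of -0.35, and of -0.24 without Pxr-/- replicate 1. Without that liver 0 of the 22 were called, as with quantile normalization (median -0.25). The sterol median was 0.04 in ATB females and -0.03 in control males. Genes of fatty acid synthesis (0 of 22), complement (0 of 20), acute phase (0 of 21), the clock (0 of 16), heat shock (0 of 14) and nuclear receptors (0 of 14) had no call, and PPARA targets had 1 of 27 (lower), which was not called without Pxr-/- replicate 1. Without Pxr-/- replicate 1, 3 of the acute phase and 2 of the complement genes were called lower.

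Several of the clearest falls were of genes in none of these lists. Apol7b, an apolipoprotein L family member, was at 7.21 to 7.67 (median 7.51) in Pxr-/- and 8.49 to 9.28 (median 8.91) in Pxr+/+ females and fell by 1.41 ± 0.14 (2.65-fold, adjusted p = 2.22e-08). Adrb3, a beta-adrenergic receptor best known from fat, was at 7.06 to 8.32 against 8.55 to 9.88 and fell by 1.32 ± 0.17 (adjusted p = 5.46e-06). Gm6135 was at 8.76 to 10.29 against 10.70 to 11.17 and fell by 1.41 (adjusted p = 0.000828). None of the 3 overlapped between groups. A130072N09Rik, LOC102642410 and Gm5150 also separated and fell by 1.22, 1.12 and 1.09. Of these, A130072N09Rik lies on chromosome 16, 7.74 Mb after Nr1i2.

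The genes of chromosome 16 around Nr1i2 are given apart, except A130072N09Rik, which is named above and is counted here. Within 20 Mb on each side, 31 of 329 tested genes other than Nr1i2 were called (9.42%, 4 higher and 27 lower), where 4.18% of all genes were called in either direction. On the rest of the chromosome the share was 5.77% of 364 genes, and among all 21298 genes outside the window it was 4.09%. With quantile normalization the shares were 5.78%, 2.2% and 1.28%. The median change within the window was -0.13. Pigx, a mannosyltransferase subunit for GPI anchors that lies 6.16 Mb before Nr1i2, was at 9.29 to 9.77 (median 9.34) against 10.37 to 10.70 (median 10.56) and fell by 1.13 ± 0.12 (adjusted p = 8.91e-08). Its neighbour Senp5, a SUMO protease, fell by 0.82 (adjusted p = 2.62e-05). Tctex1d2, a dynein light chain 5.82 Mb before Nr1i2, rose by 0.81 (adjusted p = 0.000885), and Meltf, an iron-binding melanotransferrin, rose by 0.79 but was well above background in only 1 of 6 Pxr+/+ livers. All 4 separated the genotypes with no overlap in control females.

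On the other side, Ift57, an intraflagellar transport protein 11.5 Mb after Nr1i2, was at 7.84 to 8.52 (median 8.07) against 6.22 to 7.59 (median 6.46) and rose 2.82-fold (1.49 ± 0.26, adjusted p = 0.0009). Pla1a, a phospholipase 0.148 Mb from the probe, fell by 0.92 (adjusted p = 6.11e-05), and Dubr, a long non-coding RNA, by 0.85 (adjusted p = 8.33e-06). Tagln3, a neuronal calponin-like protein, was not well above background in any Pxr-/- liver, and its level was at least 1.85-fold lower there (adjusted p = 0.00339). Pigx, Senp5, Tctex1d2 and Ift57 were called the same way in control females, ATB females and control males. In ATB females 7 genes of the window were called (2.13%, against 0.202% outside it) and in control males 5 (1.52%, against 0.174%).

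**Figure D4:**
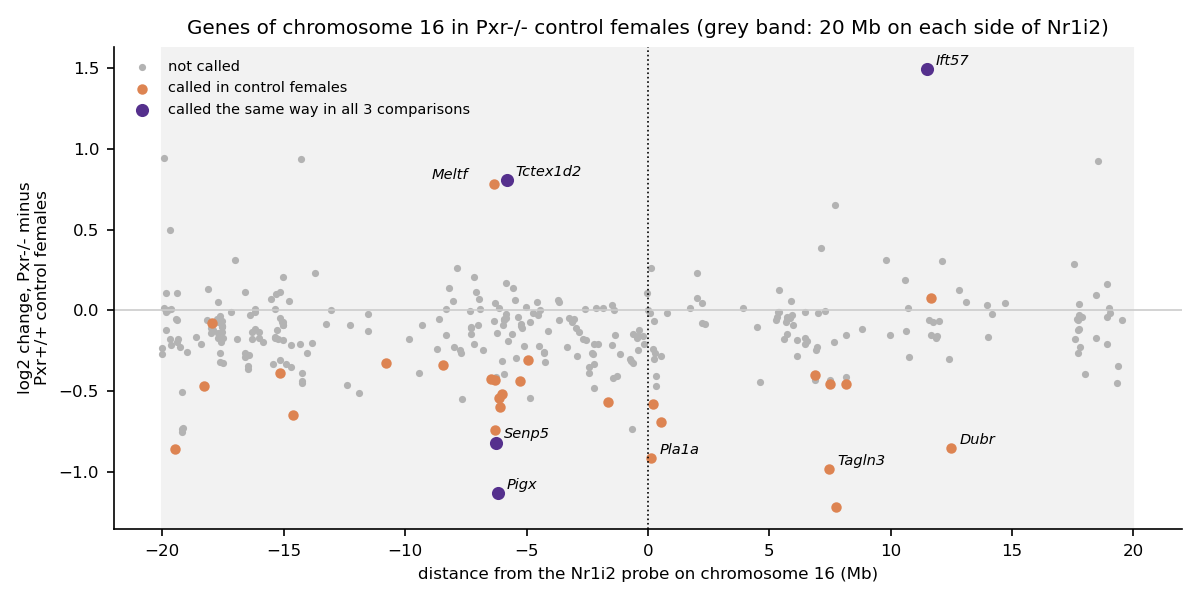
Log2 change between Pxr-/- and Pxr+/+ control females of the 329 tested genes within 20 Mb of the Nr1i2 probe (grey band), by their distance from it in Mb, with called genes as large dots. Pigx, Senp5, Tctex1d2 and Ift57, which were called the same way in all 3 comparisons (purple), lie between 6.27 Mb before and 11.5 Mb after the probe.

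The rises were also seen in mice of the other groups. Of the 52 genes higher in control females, 48 were above 0 in ATB females and 25 were called there, where 0.18% of all genes were called higher. In control males 46 were above 0 and 16 were called, with a background of 0.162%. In all 3 comparisons 13 genes rose, among them Cyp2c55, Akr1b7, Ces2a, Pla2g12a, Rarres1, Adamtsl1, Igfbp2, Smim22, Ldlrad4 and Cyp2c38. Ces2a rose by 0.77 in control females, 1.37 in ATB females and 0.59 in control males, and Cyp2c55 by 2.43, 3.03 and 2.36.

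The falls were also set beside the other groups. Of the 851, 678 were below 0 in ATB females, where 50.3% of all genes were, and 9 were called (background 0.0509%). In control males 751 were below 0, where 65.5% of all genes were, and 3 were called (background 0.0324%), namely Apol7b, Pigx and Senp5. The test of the difference between effects called 0 of the 851 against ATB females and 0 against control males, so the falls are not shown to differ between these groups. Of the 9 called in both female comparisons, 5 lay on chromosome 16, and Apol7b, Adrb3 and Gm6135 were among the rest. Kupffer cell markers had a median of -0.40 in ATB females and -0.44 in control males, with 0 of 23 called in each. Their mean per mouse ranged from 0.84 to 2.24 in ATB Pxr+/+ and from 0.85 to 1.65 in ATB Pxr-/- females, so these groups overlapped. Interferon-stimulated genes had a median of -0.19 in ATB females and 0.06 in control males. The test of the difference between females and males called 0 of the 28, and 13 had an unadjusted p under 0.05, as had 1501 of all 21628 genes.

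**Figure D5:**
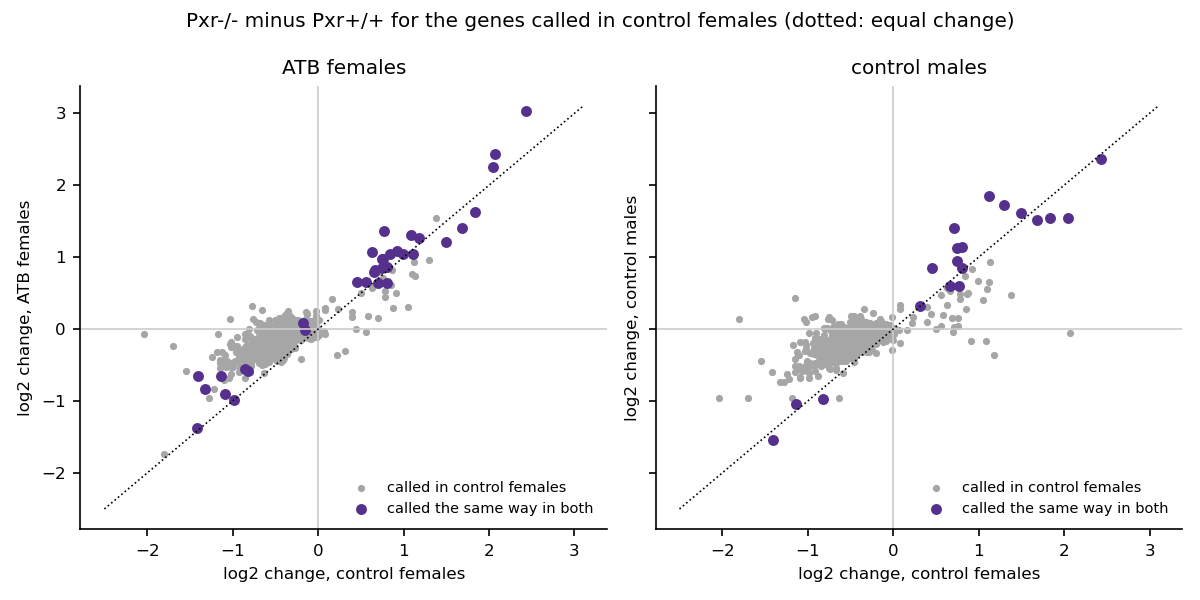
Log2 change between Pxr-/- and Pxr+/+ mice of the genes called in control females (horizontal axis) against the change of the same genes in ATB females (left) and control males (right). Dots on the dotted line changed equally, and larger dots mark genes called the same way in both (25 higher and 9 lower in ATB females, 16 higher and 3 lower in control males).

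The test of the difference between the genotype effects in control females and control males called 5 genes (0.0231%), of which Slco1a4 and Cyp2c53-ps were well above background in all control livers of both sexes. Slco1a4, an uptake transporter of organic anions, was at 10.11 to 11.34 in Pxr-/- and 11.18 to 11.91 in Pxr+/+ females (-0.50, adjusted p = 0.149), and at 6.65 to 7.79 against 9.74 to 10.59 in males (fell by 2.92). The difference between these effects was 2.42 ± 0.30 (adjusted p = 9.72e-06). Cyp2c53-ps, a Cyp2c pseudogene, differed by -0.15 in females and rose by 1.14 in males (interaction adjusted p = 0.0166). Tmeff2, a membrane protein with follistatin domains, was well above background in 4 of 6 Pxr-/- and 0 of 6 Pxr+/+ females and rose in males (interaction adjusted p = 0.0117). Meig1, a meiosis protein, and Cyp2c65 were not well above background in any control female and rose in males (interaction adjusted p = 0.000385 and 0.00314). Between control and ATB females, limma's test of the difference called 0 genes (0%), with 3072 genes at an unadjusted p under 0.05 and 1 gene called from the authors' processed values. The main fit thus shows no gene that responds to the genotype differently with and without antibiotics.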

How the data were processed

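Liver RNA was labelled with Cy3 and hybridized by the authors to mouse arrays (probe coordinates of build mm9), whose images were read with Agilent Feature Extraction 10.10.1.1 according to the submitters' processing notes. The deposited scanner files hold unscaled intensity values per spot, next to a table of log2 values that the authors filtered, corrected for the washing bath and normalized with CrossNorm.

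Here the log2 of the median intensity was taken, 422 non-uniform spots were left out, and spots of a probe were averaged. A probe was kept when some group had 5 or more arrays with its signal well above background (32979 of 56605, 21628 genes). The effect of 3 wash batches was removed with group means kept. CrossNorm stacked 1 array of each of the 8 groups, quantile normalized the stacks and averaged 100 random draws, which does not remove a group's overall shift. limma 3.58.1 (R 4.3.3) was fitted to all 47 arrays with group and wash batch, p-values were adjusted by the Benjamini-Hochberg method over all probes, and genes were called at 0.05 or less with a fold change above 1.2. Errors are limma's SE. A gene is described by its brightest probe and counts as called when 1 or more of its probes passed. Values of a list in a mouse are means centered on the array. Probes not well above background in a group give a bound against the lowest signal well above background on the same arrays. The number of arrays limits the precision, and nothing beyond the labels says that mice of a group were independent of their cage. The model fit was tested on simulated data, and other scalings, filters, designs and left-out livers were tried.

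Named genes were Nr1i2, the 12 rises and 12 falls largest in size among genes that did not overlap, members of 33 lists written from general knowledge, called genes within 20 Mb of Nr1i2, and the genes of a called interaction. Csad, Igfbp2, Mup2, Mup6, Ces2f and the Sult2a genes outside the lists were named after their values were seen. Comparisons, members and lists were chosen with earlier results of these data known.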

Additional observations from a re-analysis of the deposited data

Results flagged for a closer look

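Among 250 sets of 6 control female values of 1 gene and genotype, 13 held a value far from the other 5 (Dixon's test), and chance gives about 1 in 20. Of these, 5 were of Pxr-/- replicate 1, with Saa1 at 18.15, Lcn2 at 15.97, C730002L08Rik at 6.04, Ces2a at 12.26 and Slco1a4 at 10.11. Pxr+/+ replicate 5 was far above the rest for Sult2a1 (16.66), Sult2a4 (14.62) and Cyp3a57 (13.98). Pxr+/+ replicate 3 stood at 13.52 for Sult2a6 and at 8.88 for Timd4, and Pxr+/+ replicate 4 at 7.59 for Ift57. Pxr-/- replicate 2 was low for Aldh1a1 (16.01), and Pxr-/- replicate 3 was high for Adamtsl1 (8.94).

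The genotype effect in control females minus that in control males passed limma's interaction test for Slco1a4 (2.42), Meig1 (-1.74), Tmeff2 (-1.72), Cyp2c53-ps (-1.29) and Cyp2c65 (-0.67), on the log2 scale. Meig1 and Cyp2c65 were not well above background in any control female and Tmeff2 in none of the Pxr+/+ females, so their female effects are not measured and these values are not sizes of a difference.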

How the results depend on the processing

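Counts of higher and lower genes in control females (52 and 851) moved with the scaling. They were 125 and 167 with quantile normalization, 34 and 203 with spike-in scaling, 133 and 95 with the processed signal less its 75th percentile, 127 and 174 with normexp, and 96 and 670 from the authors' values, which kept the excess of falls (631 shared). No filter on dim probes gave 510 lower genes. A fit of the groups compared alone gave 23 and 170, and with the replicate number as a block 27 and 222. Same-numbered livers did not deviate together (1 of 6 correlated best with its own number, which marks a slide), so the numbers were not taken to pair mice. Single wash batches, chosen after seeing the data, gave 6 and 7 (batch 1) and 2 and 3 (batch 2). With 1 liver left out, higher genes ranged from 31 to 71 and lower genes from 119 to 2841, genes differing between females and males from 4 to 8, and between control and ATB females from 0 to 0, against 1 from the authors' values. Quantile normalization gave 56 higher and 17 lower genes in males and 61 higher in ATB females, and the authors' values 21 lower in males. Among 125 named genes, 0 of 1603 values under other settings and 2 of 1500 with 1 liver left out changed direction. These were Saa1 and Lcn2, which were not called and ranged from -0.56 to 0.77 and from -0.37 to 1.11, lowest without Pxr-/- replicate 1. The causes were not tested.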
